A study of Homo sapiens with 12 samples.

Results

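The transcripts of 9 receptors for survival and differentiation signals were followed in IMR32 cells: NTRK2, NTRK3, NGFR, RET, GFRA1, GFRA2, GFRA3, ALK and IGF1R. They were found by gene symbol in the deposited table, which lists 27514 genes, and all 9 were present. IMR32 is an established human neuroblastoma cell line that carries an amplified MYCN, a transcription factor gene. The 4 groups, of 3 samples each, were cells transfected with a control siRNA (siCTR in the labels, here siCtrl), with an siRNA against MYCN (siMYCN_2, here siMYCN), with an siRNA against HAND2 (siHAND2_3, here siHAND2), or with both (siM2+siH2_3, here siMYCN+siHAND2 or the combined knockdown). All groups were electroporated with a Nucleofector, grown in medium with fetal calf serum and harvested after 72 h. The labels give a single siRNA name for each target, in a single cell line, and do not say whether the 3 samples of a group came from separate cultures, so the p-values measure only the spread between these samples.

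The receptors belong to 4 signalling systems of the sympathetic nervous system, the lineage from which neuroblastoma arises. NTRK2 (TrkB) and NTRK3 (TrkC) are receptor tyrosine kinases for the neurotrophins, and NGFR is a receptor without kinase activity that binds all neurotrophins and can act with the Trk kinases. RET is a receptor tyrosine kinase that responds to ligands of the GDNF family through membrane-anchored co-receptors: GFRA1 binds GDNF, GFRA2 binds neurturin and GFRA3 binds artemin. ALK is a receptor tyrosine kinase activated by the ALKAL ligands and is a known target of activating mutations in neuroblastoma, and IGF1R is the receptor kinase for insulin-like growth factors.

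RET and ALK are shown with the sequence before their start because their transcripts followed each other most closely of all pairs of these receptors, and NTRK3 because its levels ran in another order. The 250 bases before a gene's start were taken from RefSeq (GRCh38.p14), which matched 7 of the 9 receptors, not NGFR or GFRA2, with 15 windows because a gene can have several starts. The outermost start of each gene is shown, on the gene's strand, from 5′ to 3′. Capitals mark matches to CANNTG, the general E-box that basic helix-loop-helix factors such as MYCN and HAND2 can bind.
ALK, chr2:29921587-29921836, minus strand: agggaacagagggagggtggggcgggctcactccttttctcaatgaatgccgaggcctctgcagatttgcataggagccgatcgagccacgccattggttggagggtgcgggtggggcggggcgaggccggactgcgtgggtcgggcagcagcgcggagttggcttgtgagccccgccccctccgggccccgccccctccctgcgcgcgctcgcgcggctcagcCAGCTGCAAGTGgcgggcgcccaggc
RET, chr10:43076819-43077068, plus strand: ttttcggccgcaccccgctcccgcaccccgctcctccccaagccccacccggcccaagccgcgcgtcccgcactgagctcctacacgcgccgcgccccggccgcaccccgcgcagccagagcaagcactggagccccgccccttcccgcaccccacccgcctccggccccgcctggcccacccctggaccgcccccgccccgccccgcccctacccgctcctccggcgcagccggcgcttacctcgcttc
NTRK3, chr15:88256740-88256989, minus strand: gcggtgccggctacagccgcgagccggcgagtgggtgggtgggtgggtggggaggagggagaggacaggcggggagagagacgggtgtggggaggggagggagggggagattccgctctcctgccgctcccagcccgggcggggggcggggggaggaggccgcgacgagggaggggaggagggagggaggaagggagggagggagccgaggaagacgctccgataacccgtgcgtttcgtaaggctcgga
The ALK window held 2 adjoining matches, which began 26 and 20 bases before the start, and the RET and NTRK3 windows held none. Over the 15 windows of the receptors, searched on both strands, 10 held CANNTG, against 61.8% of all 35116 windows of this length. The MYC-type E-box CACGTG was in 1 of the 15, at an internal ALK start, against 6.34% of all windows. The form CATCTG, which HAND factors bind with E proteins, was in 2 of the 15, both of GFRA1, against 12.2% of all windows. Both of these forms are also counted under CANNTG. A match is a description of the letters only.

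Values are CPM, read counts scaled to the same total in every sample, and in these bulk samples fewer cells with a transcript and less of it per cell cannot be told apart. The worth of 1 read was estimated from the smallest steps between low values and gave depths of 31.6 to 64.2 M reads per sample, so that 3 reads are worth 0.0468 to 0.0949 CPM (a limit of counting alone). The share of reads within the listed genes was 64.3 to 65.8% for the siCtrl samples, 61.3 to 63.3% for siMYCN and 56.8 to 61.4% for siHAND2. In the combined knockdown it was 58.4, 51.4 and 44.3% in replicates 1, 2 and 3. A lower share lowers the CPM of all listed genes at once. The median log2 change of the 12680 genes tested was 0.006 for siMYCN, −0.14 for siHAND2 and −0.28 for the combined knockdown. Values are therefore also given after rescaling each sample by its median ratio over genes, which brought these medians to 0.014, 0.012 and 0.045. Of the targets, MYCN had 1009 ± 42.6 CPM (SD, n = 3) with the control siRNA, 682 ± 22.8 CPM with siMYCN, 849 ± 48.7 CPM with siHAND2 and 482 ± 64.3 CPM with both. HAND2 had 239 ± 15.3, 326 ± 7.5, 62.3 ± 7.06 and 73.5 ± 11.1 CPM in the same order, and its antisense neighbour HAND2-AS1, which overlaps it, averaged 106 to 146 CPM over the groups.

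Of 10 marker genes of noradrenergic neuroblastoma, 9 had a mean of at least 1 CPM. Their summed level was 729 to 756 CPM for siCtrl, 1029 to 1065 CPM for siMYCN, 877 to 943 CPM for siHAND2 and 745 to 1142 CPM for the combined knockdown. NGFR and the neurotrophin receptors are also known from Schwann cells and mesenchymal cells, so markers of these were read too. Of 7 Schwann cell markers 2 had a mean of at least 1 CPM. Their summed level was 27.3 to 30.9 CPM for siCtrl, 31.5 to 32.3 CPM for siMYCN, 12.1 to 13.0 CPM for siHAND2 and 10.2 to 14.5 CPM for the combined knockdown. Most of it was PMP22, the defining factor SOX10 lay at 0.132 to 0.559 CPM, and FOXD3 was below 3 reads in all samples. Of 10 mesenchymal markers 6 had a mean of at least 1 CPM, with sums of 284 to 313, 242 to 293, 139 to 170 and 84.5 to 148 CPM in the same order, mostly VIM, and PRRX1 was listed at 0 in all samples. The part of these sums in the receptor values was not tested. The 4 immune markers summed to at most 0.985 CPM and the 3 endothelial markers to at most 1.76 CPM.

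To compare receptors with each other, levels were divided by the exon length of the MANE Select transcript that lies within the gene's listed span. The counting rule is not known, and the order depends on the length used. NTRK3 has 3.0 kb by this transcript and 26.8 kb over all annotated exons, against 6.24 and 7.38 kb for ALK. Places in the order differ in undivided CPM. In siCtrl, GFRA2 was the highest at 47.5 ± 3.72 CPM per kb (SD, n = 3). NGFR followed at 14.1 ± 1.20 and GFRA1 at 13.5 ± 0.54 CPM per kb, and these neighbours overlapped between samples. ALK at 6.11 ± 0.23 and IGF1R at 5.13 ± 0.80 CPM per kb did not overlap, though the lowest ALK sample (5.89) stood close to the highest IGF1R sample (5.77). NTRK3 at 0.525 ± 0.056 and RET at 0.285 ± 0.030 CPM per kb were far lower, with no overlap between them. In undivided CPM NTRK3 and RET overlapped, at means of 1.58 and 1.60 CPM. GFRA3 and NTRK2 were near the limit of detection.

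This order differed in the other groups. In siMYCN, ALK rose to the second place at 26.1 ± 0.61 CPM per kb, behind GFRA2 at 82.1 ± 5.0 and ahead of GFRA1 at 18.6 ± 0.79. In undivided CPM ALK and GFRA1 overlapped there, at means of 163 and 170 CPM. NTRK3 at 1.17 ± 0.14 and RET at 1.05 ± 0.098 CPM per kb overlapped there. In siHAND2, GFRA1 led at 33 ± 5.24 CPM per kb, followed by GFRA2 at 16.2 ± 1.85 and IGF1R at 8.57 ± 2.12. NTRK3 at 2.5 ± 0.060 CPM per kb lay above ALK at 1.82 ± 0.12 with no overlap. In undivided CPM this order was reversed, with NTRK3 at 7.52 and ALK at 11.3 CPM. In the combined knockdown GFRA1 at 31.6 ± 5.22 CPM per kb again led, and GFRA2 at 20.7 ± 5.18 overlapped it in part of its range. NTRK3 at 4.53 ± 0.18 and NGFR at 4.21 ± 1.48 CPM per kb overlapped, and RET was the lowest of the 7 receptors with a mean of at least 1 CPM, at 0.260 ± 0.025.

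**Figure D1:**
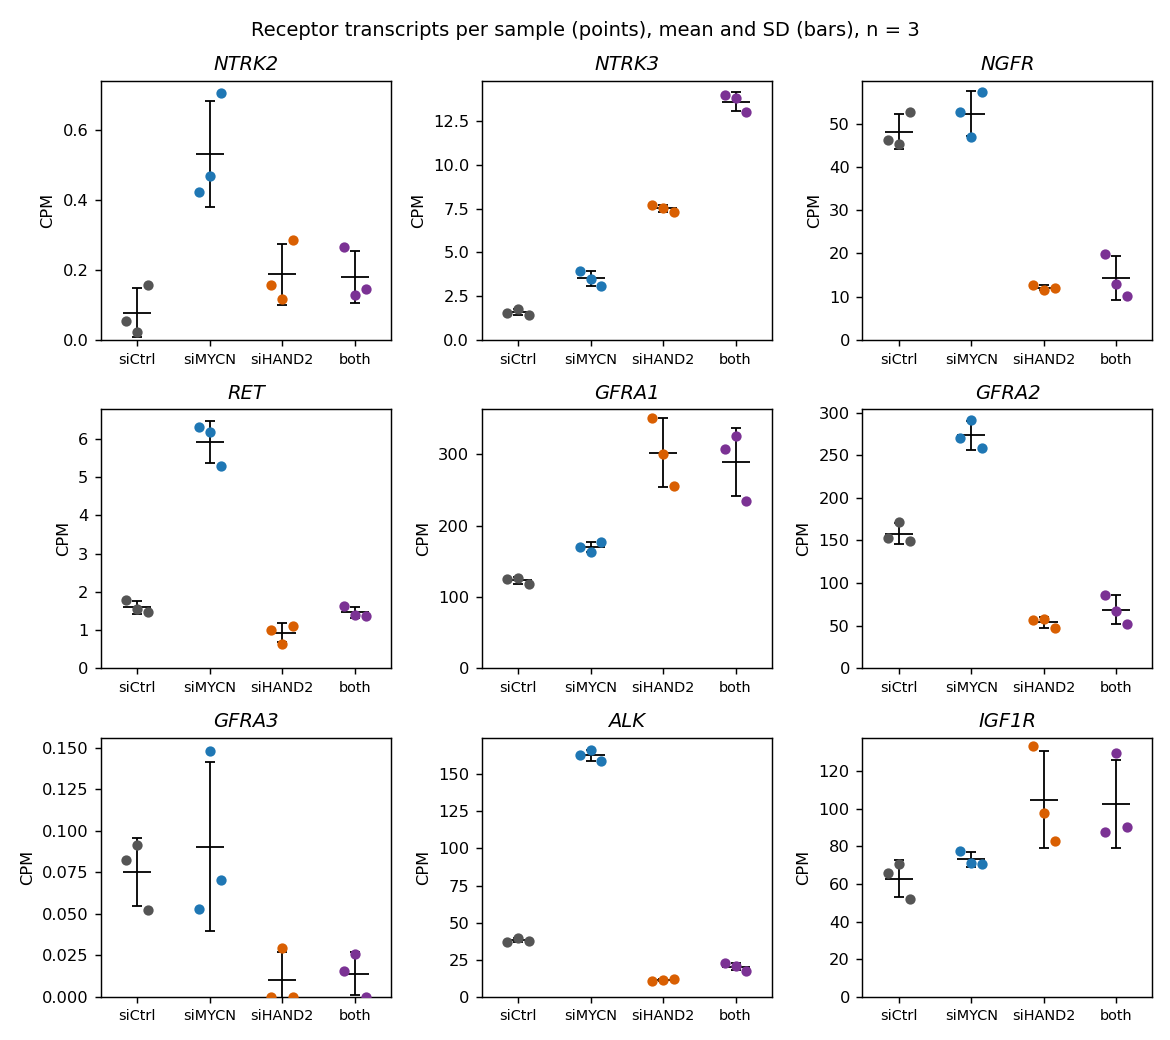
CPM of the 9 receptors (vertical axes, each starting at 0) in the 12 samples by group, where both stands for siMYCN+siHAND2, points are replicates 1 to 3 from left to right and bars are the mean and SD. ALK reached 159 to 167 CPM in siMYCN and 10.6 to 12.0 CPM in siHAND2, while NTRK3 was lowest in siCtrl and highest with both siRNAs.

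Changes were tested with limma across the 12680 genes with a mean of at least 1 CPM, as log2(CPM + 1), a scale on which the changes of low genes look smaller than they are. A gene is termed called at an adjusted p under 0.05 (Benjamini-Hochberg over all genes tested). Of the 9 receptors 7 entered the test, and NTRK2 and GFRA3 fell under the filter. Against siCtrl, siMYCN called 5 of the 7, all higher, where 17.4% of all genes were called higher and 33.7% in either direction. The siHAND2 group called all 7, of which 3 were higher and 4 lower, where 42.7% of all genes were called. The combined knockdown called 6 of the 7, with 3 higher and 3 lower, where 67.4% of all genes were called, a share that leaves little room for a count to stand out. The 3 comparisons use the same siCtrl samples. In the comparison of siMYCN with siHAND2, which uses none of them, 4 of the 7 receptors stood higher with siMYCN and 3 with siHAND2, where 35.0% of all genes were called and 8.98% as higher with siHAND2. Of the combined knockdown against siMYCN, 3 receptors were higher and 4 lower, where 8.92% of all genes were called higher and 50.0% lower. Of the combined knockdown against siHAND2, 3 were higher and 0 lower, where 8.75% were called higher.

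Counted over all 9 receptors, the samples of siMYCN and siCtrl did not overlap for 6, where this held for 61.0% of all genes tested. It held for 8 receptors between siHAND2 and siCtrl (62.8% of all genes) and for 7 between the combined knockdown and siCtrl (65.0%). It held for all 9 between the combined knockdown and siMYCN (59.1%) and between siMYCN and siHAND2 (60.6%). Between the combined knockdown and siHAND2 it held for 3 (40.4%). The only receptor that overlapped between siHAND2 and siCtrl was NTRK2, which had few reads. The shares cover genes with a mean of at least 1 CPM and so leave out NTRK2 and GFRA3, which the counts include.

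ALK had the widest range of group means on the log2 scale of the 7, between siMYCN and siHAND2. It was counted at 36.8, 39.7 and 37.9 CPM in the siCtrl samples, 163, 167 and 159 CPM in siMYCN, 10.6, 11.4 and 12.0 CPM in siHAND2, and 22.5, 20.7 and 17.7 CPM in the combined knockdown. No 2 groups overlapped. The mean was 4.27 times that of siCtrl in siMYCN, 0.297 times in siHAND2 and 0.532 times in the combined knockdown. ALK rose by 2.07 on the log2 scale in siMYCN (SE 0.11, limma adjusted p 6.2e-13), which was rank 6 among the rises of all 12680 genes. The change was −1.67 in siHAND2 (SE 0.11, limma adjusted p 7.9e-12) and −0.88 in the combined knockdown (SE 0.11, limma adjusted p 1.1e-07). After rescaling, the change in the combined knockdown was −0.54 (limma adjusted p 3.5e-06). Between siMYCN and siHAND2 the difference was 3.73 (SE 0.11, limma adjusted p 1.3e-18), rank 3 of all genes higher in siMYCN.

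The ALK change with both siRNAs was not the sum of the single changes. Between siCtrl and siHAND2 the ALK change was −1.67, and in cells with MYCN siRNA the change between siMYCN and the combined knockdown was −2.95 (SE 0.11, limma adjusted p 1.4e-16), rank 7 among all falls. MYCN siRNA raised ALK by 2.07 without and by 0.78 with HAND2 siRNA (SE 0.11, limma adjusted p 5.0e-06). The test of this difference, the interaction, gave −1.28 (SE 0.16, 95% interval −1.60 to −0.96, limma adjusted p 1.4e-05), in a comparison that called 4.01% of all genes and 3.65% as negative. The interaction was −1.10 after rescaling (limma adjusted p 3.1e-05). The ALK locus spans chromosome 2, 29415640 to 30144478, minus strand of hg19, and the listed gene inside it on the same strand had at most 0.049 CPM in any group mean.

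RET stood lower and shared the order of ALK in part. Its samples had 1.79, 1.55 and 1.46 CPM in siCtrl, 6.31, 6.18 and 5.29 CPM in siMYCN, 1.01, 0.648 and 1.12 CPM in siHAND2, and 1.62, 1.40 and 1.37 CPM in the combined knockdown. These values rest on an estimated 22 to 250 reads per sample. The siMYCN samples lay above all others, the siHAND2 samples below all others, and the combined knockdown overlapped siCtrl. RET rose by 1.41 in siMYCN (SE 0.12, limma adjusted p 5.1e-09), to 3.70 times the siCtrl mean. In siHAND2 the change was −0.44 (SE 0.12, limma adjusted p 0.0060), or 0.578 times the siCtrl mean, and without siHAND2 replicate 2 it was −0.33 and no longer called (limma adjusted p 0.060). With a pseudocount of 0.1 in place of 1 this change was −0.76 (limma adjusted p 0.0029).

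In the combined knockdown RET was not called against siCtrl (−0.08, 95% interval −0.34 to 0.18, limma adjusted p 0.58). The direction of that value turned with rescaling (0.14, limma adjusted p 0.28). Compared with siMYCN, RET changed by −1.49 with both siRNAs (SE 0.12, limma adjusted p 2.4e-10), in a comparison that called 58.9% of all genes. Against siHAND2, where 40.3% of all genes were called, it changed RET by 0.36 (limma adjusted p 0.023). The call was lost without siHAND2 replicate 2 (0.25, limma adjusted p 0.17) when only these groups were fitted (limma adjusted p 0.057) and without a filter on low genes (limma adjusted p 0.059), and with a pseudocount of 0.1 the value was 0.63. The interaction of RET was −1.05 (SE 0.18, 95% interval −1.41 to −0.69, limma adjusted p 8.4e-04) and −0.90 after rescaling (limma adjusted p 0.0040). The RET locus spans chromosome 10, 43572517 to 43625798, plus strand of hg19 and overlaps no other listed gene.

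The co-receptors GFRA1 and GFRA2 went in opposite directions in siHAND2. GFRA2 had 153, 172 and 149 CPM in siCtrl, 270, 291 and 259 CPM in siMYCN, 56.3, 58.4 and 46.8 CPM in siHAND2, and 86.6, 67.8 and 52.2 CPM in the combined knockdown. All siMYCN samples lay above siCtrl and all samples with HAND2 siRNA below it, and the combined knockdown overlapped siHAND2. GFRA2 rose by 0.79 in siMYCN (SE 0.14, limma adjusted p 1.1e-04). The changes were −1.54 in siHAND2 (SE 0.14, limma adjusted p 2.9e-09) and −1.21 in the combined knockdown (SE 0.14, limma adjusted p 3.5e-08; −0.86 after rescaling).

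Between the combined knockdown and siHAND2, the value of GFRA2 was 0.33 (95% interval 0.036 to 0.62, limma adjusted p 0.067). It was called after rescaling (0.52, limma adjusted p 1.4e-04) and without replicate 3 of the combined knockdown (0.51, limma adjusted p 8.2e-04), the sample with the smallest share of reads in listed genes. The interaction of GFRA2 was −0.46 (95% interval −0.87 to −0.052, limma adjusted p 0.19), and it was −0.64 and called without replicate 1 of the combined knockdown (limma adjusted p 0.011). Without that sample 4443 genes were called for the interaction, against 508 with it. The GFRA2 locus spans chromosome 8, 21549530 to 21646347, minus strand of hg19.

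GFRA1 had 125, 127 and 118 CPM in siCtrl, 170, 163 and 178 CPM in siMYCN, 351, 301 and 255 CPM in siHAND2, and 307, 325 and 235 CPM in the combined knockdown. All siCtrl samples lay below the others, and siHAND2 overlapped the combined knockdown. GFRA1 rose by 0.46 in siMYCN (SE 0.13, limma adjusted p 0.0079), by 1.27 in siHAND2 (SE 0.13, limma adjusted p 2.3e-08) and by 1.21 in the combined knockdown (SE 0.13, limma adjusted p 1.1e-08; 1.57 after rescaling). The rise in siMYCN was not called without a filter on low genes (limma adjusted p 0.067). The difference between the combined knockdown and siHAND2 was −0.07 (95% interval −0.34 to 0.20, limma adjusted p 0.71) and turned to 0.13 after rescaling (limma adjusted p 0.23).

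The interaction of GFRA1 was −0.53 (95% interval −0.91 to −0.15, limma adjusted p 0.11). It was called without siHAND2 replicate 3 (−0.65, limma adjusted p 0.046) and without replicate 1 of the combined knockdown (−0.58, limma adjusted p 0.025). The GFRA1 locus spans chromosome 10, 117816442 to 118033158, minus strand of hg19.

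GFRA3 was at the limit of detection. The siCtrl samples held an estimated 3, 4 and 3 reads, the siMYCN samples 2, 6 and 3, the siHAND2 samples 0, 1 and 0, and the combined knockdown 1, 1 and 0. Pooled over samples, siHAND2 stood at 0.128 times siCtrl with an exact 95% counting interval of 0.0029 to 0.899, and the combined knockdown at 0.191 times with 0.020 to 0.898. These intervals count reads alone and leave out the spread between samples. The exact permutation p was 0.1 for both groups against siCtrl, the smallest that 3 against 3 samples allow. It was 0.2 after adjustment over 6 tests of the low receptors. The GFRA3 locus spans chromosome 5, 137588069 to 137610254, minus strand of hg19.

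NTRK3 rose in each knockdown. Its samples had 1.54, 1.76 and 1.43 CPM in siCtrl, 3.96, 3.48 and 3.11 CPM in siMYCN, 7.69, 7.53 and 7.33 CPM in siHAND2, and 14.0, 13.8 and 13.0 CPM in the combined knockdown. No 2 groups overlapped. The means were 2.23, 4.77 and 8.65 times that of siCtrl, and 2.24, 5.33 and 11.2 times after rescaling. NTRK3 rose by 0.81 in siMYCN (SE 0.11, limma adjusted p 3.5e-06), by 1.73 in siHAND2 (SE 0.11, limma adjusted p 4.5e-12) and by 2.51 in the combined knockdown (SE 0.11, limma adjusted p 1.4e-15). The sum of the single changes was 2.53, and the interaction was −0.03 (95% interval −0.35 to 0.29, limma adjusted p 0.92), with its sign turning after rescaling (0.18, limma adjusted p 0.43). With a pseudocount of 0.1 the interaction was −0.26 (limma adjusted p 0.41).

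The NTRK3 locus spans chromosome 15, 88419988 to 88799963, minus strand of hg19. The antisense gene NTRK3-AS1, which overlaps its first part on the other strand, was listed at 0 in all siCtrl samples and averaged 0.083, 0.154 and 0.40 CPM in siMYCN, siHAND2 and the combined knockdown. Whether reads were counted by strand is not given in the sources used here, so the reads of both genes cannot be told apart where they overlap.

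NGFR fell with HAND2 siRNA. It had 46.3, 45.3 and 52.8 CPM in siCtrl, 52.7, 47.0 and 57.3 CPM in siMYCN, 12.7, 11.6 and 12.0 CPM in siHAND2, and 19.9, 13.0 and 10.1 CPM in the combined knockdown. The siCtrl and siMYCN samples overlapped, and so did siHAND2 and the combined knockdown, with no overlap between these pairs of groups. The change was −1.90 in siHAND2 (SE 0.15, limma adjusted p 2.7e-10), rank 26 among all falls, and −1.73 in the combined knockdown (SE 0.15, limma adjusted p 2.6e-10; −1.38 after rescaling). In siMYCN it was 0.12 (95% interval −0.20 to 0.43, limma adjusted p 0.59).

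Within the combined knockdown the NGFR values followed the share of reads in the listed genes, and after rescaling they were 20.1, 15 and 13.9 CPM. The difference from siHAND2 was 0.18 (limma adjusted p 0.36). It was called after rescaling (0.36, limma adjusted p 0.016) and without replicate 3 of the combined knockdown (0.39, limma adjusted p 0.018), and its sign turned without replicate 1 (−0.07, limma adjusted p 0.61). The NGFR locus spans chromosome 17, 47572655 to 47592383, plus strand of hg19, and of the listed genes that overlap it only LOC100288866, on the other strand, had any reads (0.141 CPM on average).

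NTRK2 was detected at low levels. The siCtrl samples held an estimated 2, 1 and 9 reads, the siMYCN samples 16, 19 and 30, the siHAND2 samples 5, 4 and 12, and the combined knockdown 17, 5 and 6. In CPM, all siMYCN samples (0.422 to 0.706) lay above all siCtrl samples (0.023 to 0.157), and the other groups overlapped siCtrl. After rescaling, the combined knockdown no longer overlapped siCtrl. Pooled over samples, siMYCN stood at 6.16 times siCtrl, with an exact 95% counting interval of 3.30 to 12.5. The siHAND2 group stood at 2.24 times (1.05 to 4.99) and the combined knockdown at 2.23 times (1.10 to 4.82). These intervals count reads alone and leave out the spread between samples, such as the 2, 1 and 9 reads of siCtrl. For siMYCN the exact permutation p of 0.1 is the smallest possible with 3 against 3 samples, and was 0.2 after adjustment over 6 tests. For siHAND2 and the combined knockdown the exact permutation p was 0.2 and 0.3 before adjustment. The NTRK2 locus spans chromosome 9, 87283373 to 87641986, plus strand of hg19.

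IGF1R rose with HAND2 siRNA. It had 66.0, 70.6 and 51.8 CPM in siCtrl, 77.6, 71.2 and 70.5 CPM in siMYCN, 133, 97.9 and 83.0 CPM in siHAND2, and 87.4, 129 and 90.2 CPM in the combined knockdown. All samples with HAND2 siRNA lay above the siCtrl samples, and siMYCN overlapped siCtrl. IGF1R rose by 0.71 in siHAND2 (SE 0.16, limma adjusted p 6.9e-04) and by 0.68 in the combined knockdown (SE 0.16, limma adjusted p 4.7e-04). The latter value was 1.04 after rescaling. In siMYCN it was 0.23 (95% interval −0.10 to 0.55, limma adjusted p 0.28).

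The differences of IGF1R between knockdown groups depended on single samples. With both siRNAs IGF1R was 0.46 higher than with siMYCN alone (limma adjusted p 0.015; 0.80 after rescaling), and without its replicate 2 the value was 0.28 and not called (limma adjusted p 0.15). The difference between siMYCN and siHAND2 was −0.49 (limma adjusted p 0.018). It was −0.30 without siHAND2 replicate 1 (limma adjusted p 0.15), and without siMYCN replicate 2 or 3 it was −0.47 or −0.46 and just missed the threshold (limma adjusted p 0.057 for each). Without a filter on low genes neither difference was called (limma adjusted p 0.16 and 0.19). The IGF1R locus spans chromosome 15, 99191768 to 99507760, plus strand of hg19, and the antisense gene IRAIN at its start averaged 0.525 to 0.836 CPM over the groups.

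**Figure D2:**
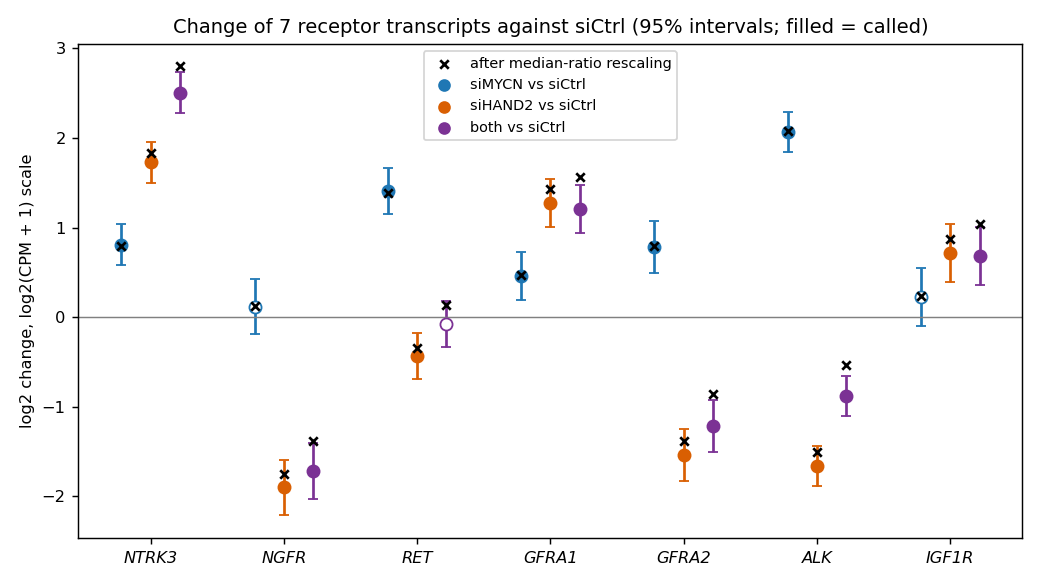
Log2 change against siCtrl (vertical axis, log2(CPM + 1) scale) of the 7 receptors tested, by knockdown, with 95% intervals, filled points for called values and crosses for the value after median-ratio rescaling. ALK lay at 2.07 in siMYCN and −1.67 in siHAND2, and NTRK3 rose from 0.81 to 2.51 over the knockdowns.

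Of the 7 receptors, ALK and RET had a called interaction, both negative, and the other 5 did not. The intervals of NGFR and IGF1R (−0.71 to 0.20) allow departures from the sum of up to 0.50 and 0.71 on the log2 scale, so that the test does not show that their single changes add up. The median interaction of all 12680 genes was −0.18 as deposited and −0.01 after rescaling. Of the 5 uncalled values, those of GFRA1, GFRA2 and IGF1R were negative on both scales, and that of NTRK3 turned positive with rescaling.

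**Figure D3:**
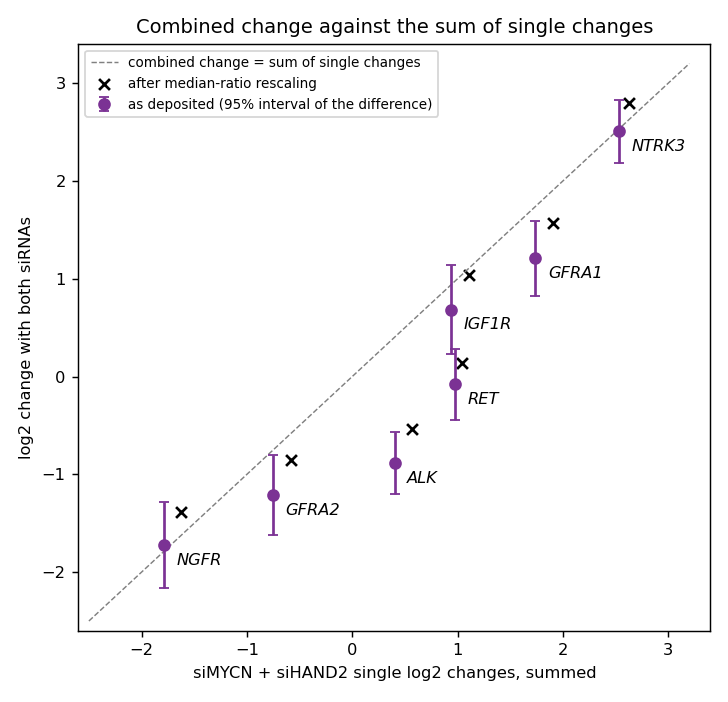
Log2 change with both siRNAs (vertical axis) against the sum of the 2 single changes (horizontal axis) for the 7 receptors, with the dashed line where both are equal and the 95% interval of their difference as bars. ALK and RET lay below the line by 1.28 and 1.05, and NTRK3 lay on it within its interval.

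Over the 12 samples the levels of RET and ALK correlated at r = 0.96, GFRA2 and ALK at 0.95, NGFR and GFRA2 at 0.95, NTRK3 and GFRA1 at 0.91 and NTRK3 and NGFR at −0.85. These values describe log2(CPM + 1) over samples that fall into 4 groups and share their library scaling, and no p is given. The 3 genes with the most similar pattern to ALK among those with a mean of at least 5 CPM were CD9 (r = 0.992), STRA6 (0.991) and PARM1 (0.988). For RET they were NRP1 (0.98), TGFB2 (0.973) and ICA1 (0.971), and for GFRA2 they were NEDD9 (0.997), TMEM108 (0.995) and PRICKLE1 (0.993). For NTRK3 they were ALCAM (0.992), RPRM (0.990) and ISL1 (0.989), a transcription factor of sympathetic neurons. NGFR was closest to PCYT2 (0.998), STX3 (0.993) and TWIST1 (0.988), GFRA1 to XKR7 (0.990), LRRTM2 (0.987) and AFAP1 (0.984), and IGF1R to NAV2 (0.976), AGAP1 (0.971) and BSN (0.968).

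Of 14 ligands of these receptors, 3 passed the filter: BDNF, a ligand of NTRK2 and NGFR, and PTN and MDK, heparin-binding growth factors that have been linked to ALK. All 3 fell in siHAND2 and in the combined knockdown, where 30.4% and 50.1% of all genes were called lower. BDNF stood at 6.32 ± 0.25 CPM (SD, n = 3) with the control siRNA, 6.13 ± 0.23 CPM with siMYCN, 1.39 ± 0.19 CPM with siHAND2 and 0.867 ± 0.24 CPM with both, changes of −0.04, −1.61 and −1.98 (limma adjusted p 0.84, 7.7e-11 and 3.4e-13). PTN rose by 0.44 in siMYCN (limma adjusted p 0.0048) and changed by −1.20 and −1.26 in the other groups (9.8e-09 and 7.6e-10). MDK stood at 167 ± 8.68 CPM in siCtrl and 80.4 ± 20.6 CPM in the combined knockdown, a change of −1.07 (limma adjusted p 1.3e-07; −0.72 after rescaling). The other 11 ligands were under the filter: among them GDNF averaged at most 0.271 CPM in any group, ALKAL2 at most 0.371 and IGF2 at most 0.060, and NTF3 and NTF4 were listed at 0.

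Of 20 symbols of co-receptors and related receptors, 19 were listed and 14 were tested. In siMYCN, where 17.4% of all genes were called higher, 8 rose and none fell, with a median log2 change of 0.46 against 0.006 over all genes. INSRR, a relative of the insulin receptor, rose from 11.2 ± 1.75 to 25.4 ± 1.68 CPM (1.12, limma adjusted p 5.2e-08), though it overlaps a gene on the other strand that averaged 165 CPM. LINGO2 rose by 0.83 (2.0e-05) and the adhesion molecule NCAM1, which also binds GDNF, by 0.80 (3.0e-04). In siHAND2 only SORCS2, a sortilin-family receptor for neurotrophin precursors, was called, higher by 0.79 (limma adjusted p 2.3e-06), where 12.3% of all genes were called higher. The combined knockdown, where 17.4% of all genes were called higher and 50.1% lower, had 3 higher and 2 lower, with SORCS2 higher by 1.22, INSRR by 0.81 and LINGO2 by 0.61 (limma adjusted p 3.6e-10, 1.1e-06 and 1.8e-04). After rescaling these counts were 6 higher in siHAND2 and 10 higher and 0 lower in the combined knockdown. With a minimum mean of 5 CPM, where SORCS2 and LINGO2 are not tested, 0 were higher in siHAND2 and 1 in the combined knockdown. Without replicate 3 of the combined knockdown 4 were higher in siHAND2 and 7 in the combined knockdown, and without its replicate 1, 4 were lower there. The count in siHAND2 was 3 higher without siHAND2 replicate 3, and without siCtrl replicate 2, 1 was lower in the combined knockdown.

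Of 32 adaptors that couple the receptors to RAS, PI3K and PLC signalling, 28 were tested. There were 10 higher and 1 lower in siMYCN, where 17.4% of all genes were called higher and 16.3% lower. There were 7 higher and 4 lower in siHAND2 (12.3% and 30.4% of all genes), and 11 higher and 6 lower in the combined knockdown (17.4% and 50.1%). After rescaling the counts were 13 and 2, 13 and 3, and 19 and 4. The median change was 0.21, 0.06 and 0.10 in the 3 knockdowns. Of the Shc adaptors named, SHC1 rose from 47.5 ± 1.96 CPM to 75.9 ± 1.62, 122 ± 3.11 and 124 ± 28.8 CPM, and SHC2 from 5.90 ± 0.30 CPM to 14.9 ± 1.61, 14.7 ± 0.48 and 27.3 ± 5.24 CPM. In the combined knockdown these were rises of 1.34 and 2.02 (limma adjusted p 1.8e-09 and 3.0e-13). DOK6, an adaptor of RET and NTRK3, rose by 0.89, 0.94 and 1.06 (limma adjusted p 7.8e-06, 2.0e-06 and 7.1e-08). GAB2, a docking protein of receptor kinases, rose by 1.26 in siMYCN (limma adjusted p 2.8e-08) and changed by −0.75 in siHAND2 (2.6e-05). In the combined knockdown GAB2 was not called (0.14, limma adjusted p 0.33), though it was after rescaling (0.47, limma adjusted p 3.2e-05).

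Of 23 genes listed as targets of ERK signalling or as feedback inhibitors, 18 were tested. In siMYCN 5 rose and 2 fell, in siHAND2 11 rose and 1 fell, and in the combined knockdown 12 rose and 4 fell. Of all genes, 17.4% were called higher and 16.3% lower in siMYCN, 12.3% and 30.4% in siHAND2, and 17.4% and 50.1% in the combined knockdown. The medians were 0.15, 0.45 and 0.69, against 0.006, −0.14 and −0.28 over all genes, and after rescaling the counts were 8 and 2, 12 and 1, and 14 and 4. With a minimum mean of 5 CPM, which tests fewer genes, 2, 5 and 5 rose. In siMYCN 3 rose without siMYCN replicate 2, and 8 without replicate 1 or 3 of the combined knockdown. ETV5, an ETS factor, had 21.0 ± 0.65 CPM with the control siRNA, 27.2 ± 4.07 CPM with siMYCN, 53.3 ± 5.47 CPM with siHAND2 and 62.7 ± 15.3 CPM with both, where it rose by 1.505 (limma adjusted p 1.1e-09). The ERK phosphatase gene DUSP4 rose by 0.86 in siMYCN (limma adjusted p 3.8e-05) and ETV1 by 0.72 (5.5e-05), while VGF, a neuropeptide precursor, changed by −0.73 (3.0e-04). PHLDA1 rose by 1.15 and the inhibitor gene SPRED3 by 1.05 in siHAND2 (limma adjusted p 6.5e-08 and 9.5e-07). In the combined knockdown SPRED3 rose by 1.39 and SPRY4 by 1.25 (limma adjusted p 1.8e-09 and 9.2e-08).

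Of 11 genes for proteins that bind IGFs or IGF2 mRNA, 7 were tested, and 0 rose and 4 fell in siMYCN (limma), where 16.3% of all genes were called lower. There were 1 higher and 1 lower in siHAND2, where 30.4% of all genes were called lower, and 1 higher and 6 lower in the combined knockdown, where 50.1% were. After rescaling by the median ratio the counts were 2 and 4, 1 and 1, and 1 and 5. With single samples left out, 0 to 2 rose in siMYCN, so that the count of 0 there depends on the scaling and on single samples. Without a filter on low genes 1 was lower in siMYCN. IGFBP4 had 31.7 ± 4.92 CPM with the control siRNA, 14.2 ± 2.24 CPM with siMYCN, 8.18 ± 2.23 CPM with siHAND2 and 3.99 ± 0.72 CPM with both, changes of −1.10, −1.85 and −2.71 (limma adjusted p 4.2e-06, 5.3e-10 and 9.1e-14). IGFBP5 rose in siHAND2 by 0.75 (limma adjusted p 2.2e-05). IGFBP2 changed by −0.56 in siMYCN (limma adjusted p 0.0041, and 0.089 without a filter) and −0.93 in the combined knockdown (4.2e-06). IGF2BP1 changed by −0.42 in siMYCN (limma adjusted p 0.040), a call lost without siCtrl replicate 1 or 2, siMYCN replicate 2 or 3, or replicate 1 of the combined knockdown (limma adjusted p 0.16, 0.16, 0.091, 0.16 and 0.051), without a filter (0.28) and after rescaling to the sum over listed genes (0.074), and by −0.94 in the combined knockdown (1.1e-05). Without siCtrl replicate 1 or 2 or siMYCN replicate 2 or 3, 2 of the 7 genes were lower in siMYCN.

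**Figure D4:**
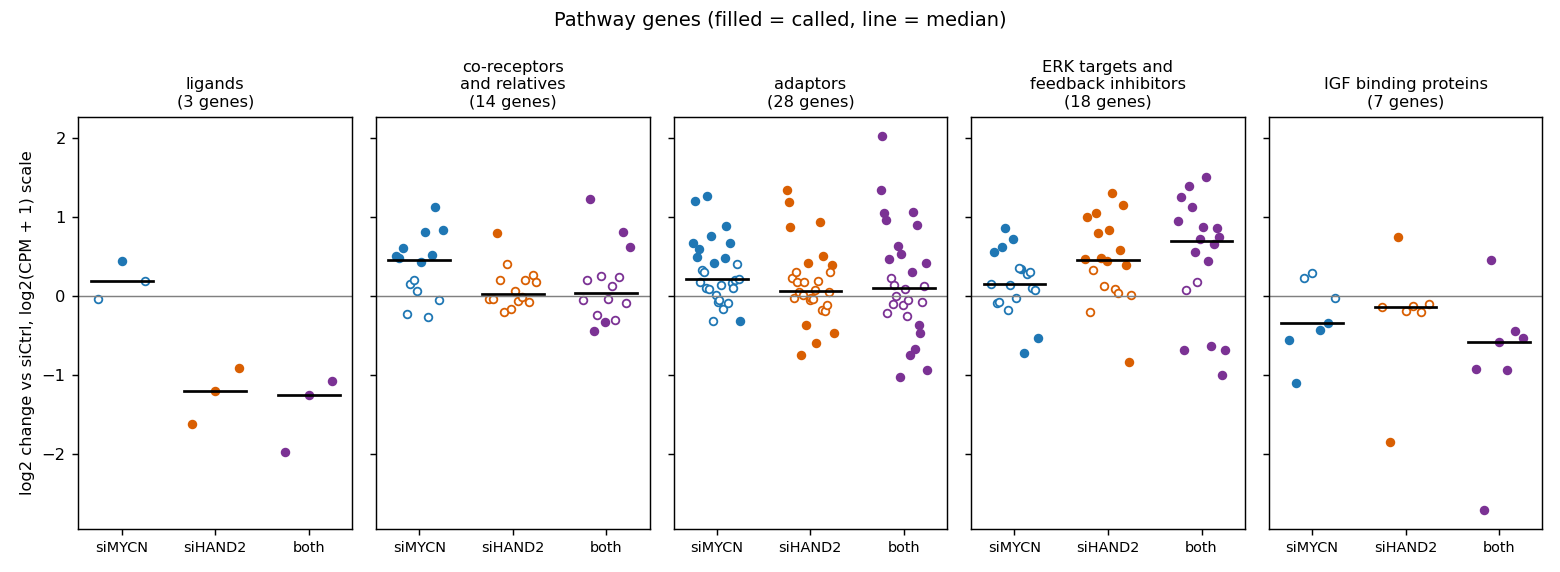
Log2 change against siCtrl (vertical axis) of the tested genes of 5 pathway lists in siMYCN, siHAND2 and both together, with filled points for called genes and a line at the median. All 3 ligands fell in siHAND2 and the combined knockdown, and the median of the 18 ERK targets and feedback inhibitors was 0.69 with both siRNAs.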

How the data were processed

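The authors deposited one table of CPM, with 1 column per sample. Per the submitters' processing notes STAR 2.5.1 and Partek were used with hg19 (GRCh37). The counting rule, use of strand and filters are not given in the sources used here. The lowest value, 0.0001, was read as 0 in the deposited CPM (counts per 1e6 reads). Between 88.5 and 90.2% of values below 20 reads came out whole (within 0.05 of a whole number), too few to run a count test on the table. The values of NTRK2 and GFRA3 were whole reads within that tolerance in all 12 samples, and their read numbers rest on it. Samples were grouped by title.

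Group means of log2(CPM + 1) were fitted with limma 3.58.1 in R 4.3.3 (lmFit, eBayes with trend) for genes with a mean of at least 1 CPM over the 12 samples, with 8 residual degrees of freedom. Tests were two-sided. The fit was tested on simulated data. Intervals of read ratios are exact 95% binomial on reads pooled over the samples of a group, and leave out the spread between samples. Exon lengths come from GENCODE release 44 on GRCh37. No pair of samples of a group was identical (per-gene chi-square on estimated reads averaged 3.35 to 37.8). Alternatives were the pseudocount (0.1), the filter (none, 5 CPM), only the compared groups, no trend, a replicate block, rescaling by the median ratio or to the sum over listed genes, and each sample left out.

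The groups share the replicate numbers of the titles. Deviations of same-numbered samples from their group means correlated at 0.15 to 0.44 between siMYCN and siCtrl and at 0.14 to 0.33 between siMYCN and siHAND2, so these were taken as paired by number from the data. In the other comparisons at least 1 number fell under 0.1. Pairing in both of these comparisons would also pair siHAND2 with siCtrl, where the values were 0.32, −0.07 and 0.42 for replicates 1, 2 and 3. The numbers that open the deposited column names also run in order of replicate over all 4 groups, and their meaning is not given. The main fit had no replicate term, so the p-values in the Results do not use this pairing. The replicate block, an alternative that does, changed no call of a receptor in the paired comparisons. Calls that it added elsewhere are given with the dependence on the processing.

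The receptors and gene lists were chosen with earlier results of these data known. Genes named are the 9 receptors, both targets, per list the 3 called genes with the largest change in each knockdown, and the 3 genes most like each receptor. Marker genes and overlapping genes are named as checks.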

Additional observations from a re-analysis of the deposited data

Results flagged for a closer look

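The effect of one siRNA differed with the presence of the other for 2 of the 7 receptors tested, by the interaction term of the limma fit. For ALK the coefficient was −1.28 on the log2 scale (limma adjusted p 1.4e-05), and for RET it was −1.05 (limma adjusted p 8.4e-04). The targets themselves were not at equal levels. MYCN changed by −0.57 in siMYCN and −1.07 with both (−0.56 and −0.71 after rescaling). HAND2 changed by −1.93 in siHAND2 and −1.70 with both (−1.77 and −1.34 after rescaling), and rose by 0.44 in siMYCN (limma adjusted p 0.0062). The part of these differences in the interactions was not tested. Over all alternatives run, the ALK value ranged from −1.36 to −1.10 and the RET value from −1.19 to −0.90, and both were called in each (RET was not tested at a mean of at least 5 CPM).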

How the results depend on the processing

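Each of 49 pairs of a receptor and a comparison was recomputed under the alternatives, 1015 values in all, of which 967 kept their direction and side of the threshold, 11 lost and 13 gained a call, and 24 changed sign, each for a value not called. The receptors called in the combined knockdown against siHAND2 numbered 3, and 5 after either rescaling and after rescaling with the replicate block, with 2 to 5 when a sample was left out. The receptors called for the interaction numbered 2, with 1 at a mean of at least 5 CPM, where RET is not tested, and 2 to 4 when a sample was left out. The replicate block gave 3 for the interaction, where it added GFRA1 (limma adjusted p 0.028), and 4 in the combined knockdown against siHAND2, where it added GFRA2 (limma adjusted p 0.019). It gave 5, 7, 6, 7 and 7 in siMYCN, siHAND2 and the combined knockdown against siCtrl, the combined knockdown against siMYCN and siMYCN against siHAND2, and changed no other call of a receptor. In the 4 comparisons not taken as paired, 4, 3, 2 and 2 of 6 samples correlated best with their own number. With rescaling by the median ratio, to the listed sum, and by the median ratio with block, signs turned for RET in the combined knockdown against siCtrl (0.14, 0.13 and 0.14), for GFRA1 (0.13, 0.15 and 0.13) and IGF1R (0.17, 0.19 and 0.17) against siHAND2, and for the NTRK3 interaction (0.18, 0.15 and 0.18). With single samples left out, values of the combined knockdown against siHAND2 ran from −0.070 to 0.39 for NGFR, −0.18 to 0.074 for GFRA1 and −0.21 to 0.16 for IGF1R, and interactions from −0.094 to 0.042 for NTRK3 and −0.19 to 0.27 for NGFR. Over all genes, the interaction called 508, and 88 without a filter, 1282 with the block, 779 and 795 after the rescalings, 1262 with rescaling and block, and 263 to 4443 with a sample left out. With only the compared groups, 6963 genes were called in siMYCN against siCtrl, where the fit to all samples called 4273, and 6730 in siMYCN against siHAND2, where it called 4443. Rescaling with block gave 6480 in siMYCN against siCtrl. Except where a value shows it, the cause was not tested. Depth limits NTRK2 and GFRA3, and RET in siHAND2.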

Other observations

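Some genes of the lists lay under the filter and are given as values, chosen after they were seen. EGR1, an immediate early gene of ERK signalling, averaged 0.441 ± 0.030 CPM (SD, n = 3) with the control siRNA, 0.807 ± 0.353 CPM with siMYCN, 1.10 ± 0.234 CPM with siHAND2 and 1.60 ± 0.114 CPM with both. SPRY1, an inhibitor of receptor kinase signalling, averaged 0.415 ± 0.073, 0.112 ± 0.109, 0.331 ± 0.060 and 0.073 ± 0.021 CPM in the same order. GDNF, the ligand of GFRA1 and RET, averaged 0.082 ± 0.035, 0.026 ± 0.026, 0.271 ± 0.041 and 0.209 ± 0.074 CPM. These genes were not in the fit across genes.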
